A study of Mus musculus with 6 samples.

Results

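The genes described here are 40 regulators of the cell cycle engine: the cyclins, the cyclin-dependent kinases (CDK) and their small CKS subunits, the CDC25 phosphatases with the kinases that oppose them, the E2F transcription factors, the RB family of pocket proteins, the CDK inhibitors, and 4 regulators of late cell cycle transcription and p27 turnover (Foxm1, Mybl2, Lin9 and Skp2). They were taken from the count table by name. Of the 40 genes, 38 had a row among the 16982 genes of the table and all 38 passed the filter on low counts that left 13386 genes. Foxm1 and Mybl2 were not analysed here. The lowest count of any of the 38 in any library was 20.

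The libraries came from mouse embryonic fibroblasts (MEF) of the C57BL/6 background on day 3 of reprogramming by OSKM, the factors OCT4, SOX2, KLF4 and C-MYC delivered by retrovirus, 3 cultures of wild type (WT) and 3 of Rnf20-/- genotype. RNF20 is, with RNF40, the ligase that places monoubiquitin on histone H2B, and the question was what its loss changes early in reprogramming. The study's methods describe Rnf20 Flox/Flox cells with a ubiquitous, tamoxifen-inducible Cre, in which 4-OH tamoxifen removes the floxed exons. The labels list every culture as untreated, and whether the WT cultures carried the floxed alleles or received the drug is not stated in the sources used here. Infected cells were replated on mitomycin-C-treated MEF feeders, cells that no longer divide, and whether the sequenced RNA held feeder RNA is not stated. Nothing in the sources says that the replicates came from separate embryos, so p-values measure only the spread between these cultures, which may be technical at least in part. The knockout cultures were not alike in their Y-linked genes, which replicates 1 and 3 lacked and replicate 2 had. Poly(A) RNA was sequenced to between 20545442 and 21746898 counts a library. Rnf20 stood at 107, 107 and 106 CPM (counts scaled to the library total) in WT and at 18.7, 18.5 and 16.4 CPM in the knockout, a log2 fold change of -2.57 ± 0.08 (SE, n = 3 against 3, adjusted p = 1.63e-04). Its partner gene Rnf40 had a log2 fold change of -0.02 (adjusted p = 0.889), and this sign turned without WT replicate 3 or without knockout replicate 3.

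Growth signals raise the D-type cyclins, which bind CDK4 and CDK6 and phosphorylate RB. Phosphorylated RB releases the activator E2Fs, which switch on cyclin E, CDK2 partners and the genes of DNA replication, and later cyclins A and B drive CDK2 and CDK1 through S phase and mitosis. In cells that stop dividing, p107 and p130 join E2F4 or E2F5 and the MuvB core in the DREAM complex, which represses the same genes. The INK4 inhibitors (p16, p15, p18 and p19) block CDK4 and CDK6, p27 blocks CDK2, and OSKM is known to raise proliferation early in reprogramming, with Cdkn2a acting as a barrier to it.

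Most of these regulators were lower in the knockout, and a small group that acts in G1 was higher. Of the 38 regulators, 25 fell, 5 rose and 8 did not pass the test (edgeR's quasi-likelihood test, Benjamini-Hochberg adjusted p under 0.05). Of all genes tested, 16.6% fell and 16.4% rose. Those that rose were Ccnd1, Ccnd2, Cdk6, Rb1 and Cdkn2b, while Cdk4, Cdkn2c and Cdkn2d, which also act in G1, fell. The median log2 fold change of the 38 was -0.82, against -0.00032 over all 13386 genes. At thresholds taken from the study's methods (an adjusted p below 0.01, more than 1 log2 unit of change in either direction, and FPKM above 1, read here as the mean of at least 1 genotype), 10 were lower (Ccnb2, Cdk1, Cdk2, Cks2, Cdc25b, Wee1, Pkmyt1, E2f8, Rbl1 and Cdkn2c), where 2.08% of all genes were. At the same thresholds Ccnd1 and Cdkn2b were higher, where 1.5% of all genes were. For 29 regulators every knockout library was below every WT library (28.2% of all genes), for 6 every one was above (26.6% of all genes), and E2f3, E2f4 and E2f6 overlapped.

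Knockout replicate 3 stood apart from the other libraries, and 10 of the 30 calls were lost when 1 library was left out. Counts of knockout replicates 1 and 2 differed by a chi-square of 8.57 per gene and those of WT pairs by 6.04 to 8.92, whereas knockout replicate 3 differed from its fellows by 92.4 and 101. It was the lowest knockout library for 22 of the 25 regulators that fell and the highest for 4 of the 5 that rose. Without it, 28 regulators were lower (24.2% of all genes) and 6 higher (23.9% of all genes), since Ccne1, E2f4 and Lin9 passed as lower and Cdkn2a as higher. At the study's thresholds 14 were then lower (3.63% of all genes) and 2 higher (2.22% of all genes). Ccnb1, Ccnf, Cdk6, Cdc25c, E2f2, E2f7, Rbl2, Cdkn2d and Skp2 lost their calls when any 1 WT library was left out, and Cdc25a did without WT replicate 3. Leaving out knockout replicate 2 lost Ccnf, Cdc25c, E2f2 and Rbl2. Every other call (16 lower and 4 higher) held whichever library was left out. The shares of all genes that passed were smaller without any 1 of the other 5 libraries than with all 6. Of all genes, 7.31%, 6.13% and 5.17% were lower and 7.01%, 5.75% and 5.11% higher without WT replicates 1, 2 and 3. Without knockout replicate 1, 13.4% were lower and 14.2% higher, and without knockout replicate 2, 11.6% and 12.4%.

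The Y-linked genes Ddx3y, Eif2s3y, Kdm5d and Uty summed to 227 to 242 CPM in WT and 266 CPM in knockout replicate 2, but to 0 and 0.048 CPM in knockout replicates 1 and 3. With a term for their presence, no regulator was lower (0.217% of all genes) and only Ccnd1 was higher (0.598% of all genes) at an adjusted p under 0.05 by edgeR's quasi-likelihood test. At an unadjusted p under 0.05, 19 were lower and 4 higher in that fit, and no regulator changed sign. Whether the embryo's sex had a part in the differences was not tested beyond these values.

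**Figure D1:**
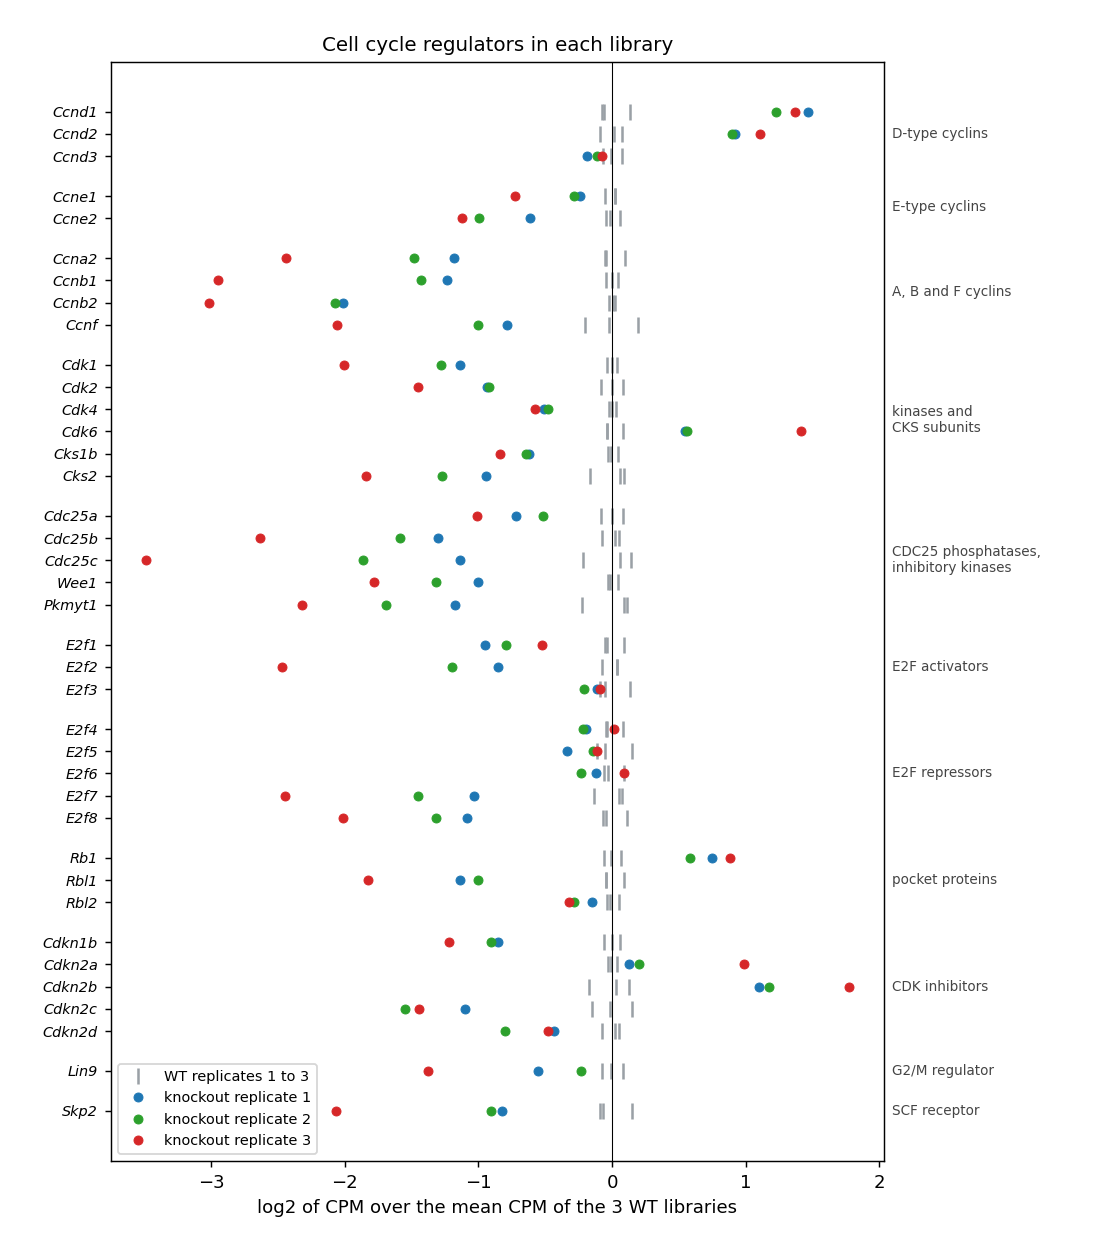
Level of each of the 38 regulators in each library, as the log2 of its CPM over the mean CPM of the 3 WT libraries (horizontal axis), grouped by role. Grey bars are WT libraries and coloured points knockout libraries. Knockout replicate 3 (red) is the farthest left in 22 of the 25 genes that fell, and E2f3, E2f4 and E2f6 are the genes whose knockout points mix with the WT bars.

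Promoters were searched for letters that are known from genes timed by the cell cycle. TTTGAA is the core of the cell cycle homology region bound by the MuvB core, and TTTCCCGC, TTTGGCGC, TTTGCCGC and TTTCGCGC are forms of the E2F site. RefSeq promoters on GRCm38.p6 (250 bases before to 50 after a gene's start) matched 27 of the 38 regulators by symbol, and both strands were searched. TTTGAA lay in 10 of the 27 (37.0%), against 20.2% of all 27025 genes with a promoter and 17.9% of 32851 promoters. An E2F form lay in 8 of the 27 (29.6%), against 2.6% of genes and 2.26% of promoters. Among the 20 regulators that fell and had a promoter, 8 held TTTGAA and 6 an E2F form. Of the 5 that did not pass, 1 held TTTGAA and 2 an E2F form, and of the 2 that rose 1 held TTTGAA and 0 an E2F form. The 6 genes that passed the study's thresholds and held either motif are printed 5′ to 3′ on their own strand, with the motif in capitals (TTCAAA and GCGGGAAA are the reverse complements), and all 6 lie on the minus strand. At the same thresholds Cks2, Cdc25b and Cdkn2c held neither motif, and Ccnd1, Wee1 and Pkmyt1 were not searched.
Ccnb2, chr9:70421505-70421804: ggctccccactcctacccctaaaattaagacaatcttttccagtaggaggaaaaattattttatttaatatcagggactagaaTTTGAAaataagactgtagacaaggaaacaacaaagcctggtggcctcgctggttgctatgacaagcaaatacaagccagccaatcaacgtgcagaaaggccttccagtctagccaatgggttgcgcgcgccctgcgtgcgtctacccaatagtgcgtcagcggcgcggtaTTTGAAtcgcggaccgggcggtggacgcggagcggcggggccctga
Cdk1, chr10:69352863-69353162: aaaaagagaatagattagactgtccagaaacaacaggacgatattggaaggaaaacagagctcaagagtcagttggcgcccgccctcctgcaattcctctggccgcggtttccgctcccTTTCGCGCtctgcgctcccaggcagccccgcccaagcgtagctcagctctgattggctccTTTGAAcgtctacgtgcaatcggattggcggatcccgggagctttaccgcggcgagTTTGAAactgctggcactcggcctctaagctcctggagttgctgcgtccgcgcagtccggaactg
E2f8, chr7:48881547-48881846: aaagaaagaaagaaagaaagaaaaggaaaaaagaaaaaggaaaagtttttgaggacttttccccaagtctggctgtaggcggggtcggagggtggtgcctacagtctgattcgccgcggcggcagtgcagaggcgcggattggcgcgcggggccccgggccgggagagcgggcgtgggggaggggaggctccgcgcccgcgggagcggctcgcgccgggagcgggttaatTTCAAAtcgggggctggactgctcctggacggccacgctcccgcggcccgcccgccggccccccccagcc
Rbl1, chr2:157204485-157204784: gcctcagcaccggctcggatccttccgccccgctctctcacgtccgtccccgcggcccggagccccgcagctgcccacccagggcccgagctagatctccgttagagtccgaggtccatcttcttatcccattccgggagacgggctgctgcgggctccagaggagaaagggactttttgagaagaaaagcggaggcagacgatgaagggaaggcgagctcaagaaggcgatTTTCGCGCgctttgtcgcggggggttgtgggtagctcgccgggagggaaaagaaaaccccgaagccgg
Cdk2, chr10:128705002-128705301: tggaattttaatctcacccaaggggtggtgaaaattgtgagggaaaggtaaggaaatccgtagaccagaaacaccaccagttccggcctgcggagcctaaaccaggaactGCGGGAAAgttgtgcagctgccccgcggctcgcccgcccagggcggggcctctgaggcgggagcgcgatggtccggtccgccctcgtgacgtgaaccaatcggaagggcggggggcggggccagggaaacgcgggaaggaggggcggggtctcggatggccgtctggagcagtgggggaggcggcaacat
Cdkn2b, chr4:89310983-89311282: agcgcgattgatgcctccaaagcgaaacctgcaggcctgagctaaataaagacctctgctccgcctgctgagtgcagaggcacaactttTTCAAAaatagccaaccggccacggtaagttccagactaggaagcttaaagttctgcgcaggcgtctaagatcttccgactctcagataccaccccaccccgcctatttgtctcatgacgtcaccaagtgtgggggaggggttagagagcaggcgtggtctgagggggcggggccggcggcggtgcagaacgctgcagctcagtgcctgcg
Counting the first transcribed base as 0, Cdk1 held TTTGAA at bases -71 and -15 and TTTCGCGC at base -131. Ccnb2 held TTTGAA at base 4, just inside the transcript, and at base -167. Rbl1, the gene of p107, held TTTCGCGC at base -18. E2f8 held TTTGAA in reverse at base -20. Cdk2 held an E2F form at base -140. Cdkn2b, which rose, also held TTTGAA, in reverse and at base -161. These are matches of letters, and binding was not measured.

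The D-type cyclins, which start the cycle with CDK4 and CDK6, included no gene that fell. Ccnd1 stood at 433, 375 and 379 CPM in WT replicates 1 to 3 and at 1093, 923 and 1019.6 CPM in knockout replicates 1 to 3. Every knockout library was above every WT library. The fitted log2 fold change was 1.36 ± 0.10 (SE, adjusted p = 0.00178), it was 1.35 without knockout replicate 3, and Ccnd1 was the regulator that also passed with the Y-linked term (1.22, adjusted p = 0.0413). Ccnd2 stood at 1065, 1023 and 954 CPM in WT and at 1917, 1891 and 2183 CPM in the knockout, with no overlap. It rose by 0.98 ± 0.09 on the log2 scale (SE, adjusted p = 0.00276). Ccnd3 stood at 158, 151 and 167 CPM in WT and at 139, 147 and 150.2 CPM in the knockout, a log2 fold change of -0.12 that did not pass (adjusted p = 0.210).

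Levels were compared between genes as CPM per kilobase of the deposited gene length. On that scale the 3 D-type cyclins summed to 341 ± 15.4 (SD, n = 3) in WT and 655 ± 37.1 in the knockout, a ratio of 1.92. Ccnd2 led in WT with 47.0% of the sum, Ccnd1 held 31.0% ± 1.18 and Ccnd3 22.0% ± 1.62. In the knockout Ccnd1 held 41.3% ± 2.53 and Ccnd3 10.5% ± 0.70, while the share of Ccnd2 was 48.2%. The Ccnd1 and Ccnd3 shares did not overlap between genotypes, which gives p = 0.1 in a two-sided exact permutation test, the smallest that 3 against 3 allow. For the Ccnd2 share the same exact test gave p = 0.4. Over the D, E, A and B cyclins together, the D-type share was 73.3% ± 0.67 in WT and 93.3% ± 2.23 in the knockout. Ccnd1 shares 23.4% of its exonic bases with LTO1 on the other strand, and whether counting used the strand is not stated in the sources used here. LTO1 stood at 13.2 CPM in WT and 14.7 CPM in the knockout, far under Ccnd1.

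The kinases that the D-type cyclins drive moved in opposite directions. Cdk4, the more abundant, stood at 345, 351 and 358 CPM in WT and at 247, 252 and 235 CPM in the knockout. It fell by 0.52 on the log2 scale (SE 0.06, adjusted p = 0.00395), and its libraries were tight in both genotypes. Its exons share 19.7% of their bases with Tspan31 on the other strand, which stood at 92.4 CPM in WT and 95.2 CPM in the knockout. Cdk6 stood at 87.3, 94.9 and 87.3 CPM in WT and at 131, 133 and 239 CPM in the knockout. The log2 fold change was 0.90 ± 0.24 (SE, adjusted p = 0.0293), and without knockout replicate 3 it was 0.56 (adjusted p = 4.56e-05). Per kilobase, Cdk6 made up 4.50% ± 0.23 of Cdk4 and Cdk6 together in WT and 8.93%, 8.85% and 15.8% in knockout replicates 1 to 3. Their sum was 169 ± 3.12 CPM per kilobase in WT and 126 ± 1.84 in the knockout.

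**Figure D2:**
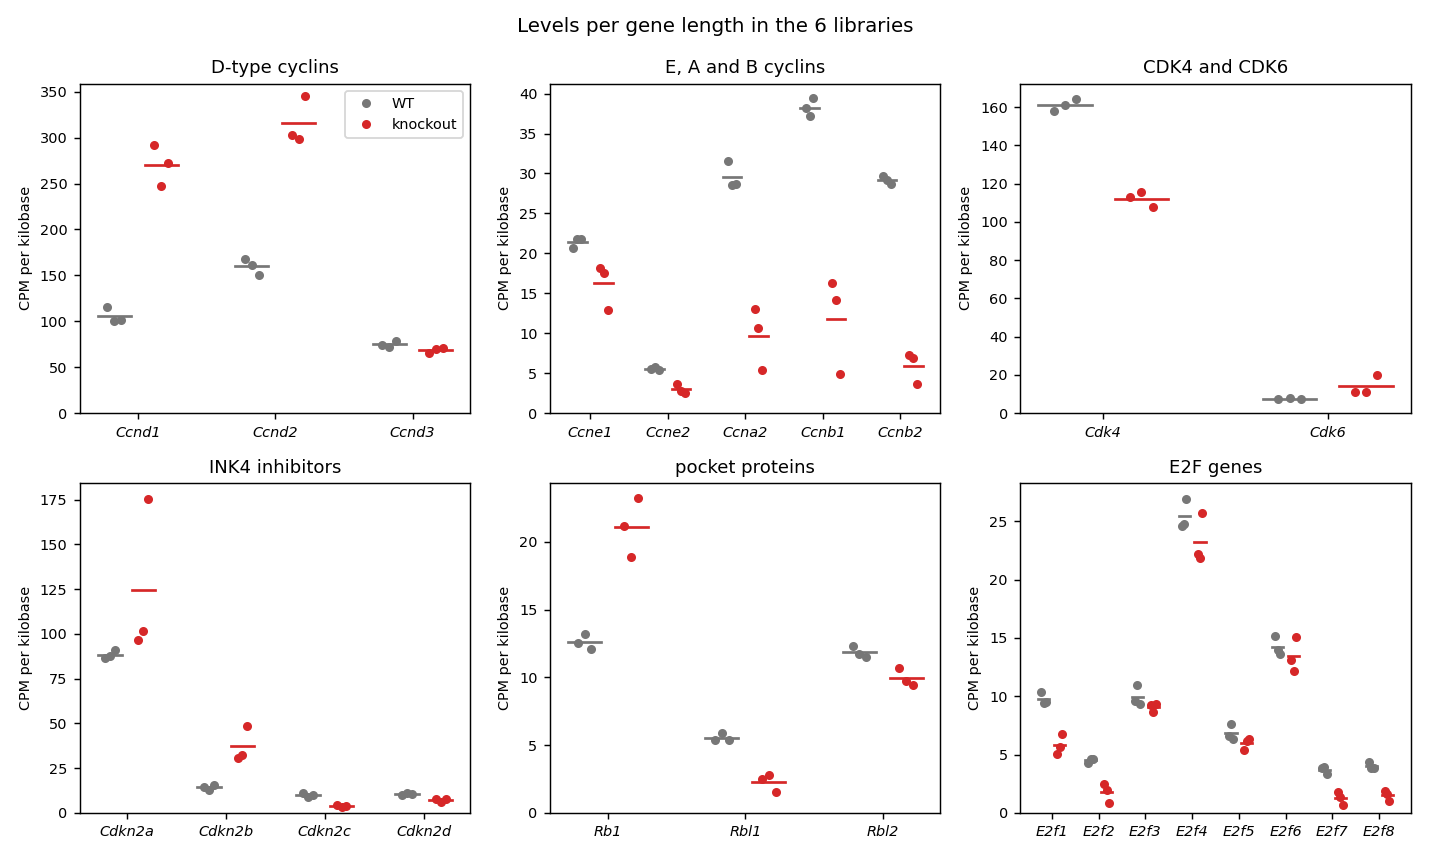
CPM per kilobase of gene length (vertical axes, from 0) of cyclins, CDK4 and CDK6, INK4 inhibitors, pocket proteins and E2F genes. Points are libraries, replicates 1 to 3 from left to right, in WT (grey) and knockout (red), and lines are means of 3. Ccnd1 and Ccnd2 lie above their WT points in every knockout library, whereas the E2F genes with the highest levels, E2f4 and E2f6, mix with WT.

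Cyclin E carries cells across the G1/S boundary with CDK2. Ccne1 stood at 41.5, 43.7 and 43.7 CPM in WT and at 36.4, 35.2 and 25.9 CPM in the knockout, a log2 fold change of -0.40 ± 0.14 (SE) with an adjusted p of 0.0597. Ccne1 was past the threshold with DESeq2 (adjusted p = 0.0375) and with library size as the scaling (adjusted p = 0.0403). Ccne2 stood at 16.6, 17.5 and 16.2 CPM in WT and at 10.9, 8.40 and 7.72 CPM in the knockout, and fell by 0.89 (SE 0.15, adjusted p = 0.00806). The exons of Ccne2 share 17.4% of their bases with Ints8 on the other strand. Ints8 was the higher of these genes, at 57.7 CPM in WT and 59.6 CPM in the knockout. The kinase gene Cdk2 stood at 49.8, 52.7 and 55.8 CPM in WT and at 27.5, 27.8 and 19.3 CPM in the knockout. Cdk2 fell by 1.08 (SE 0.15, adjusted p = 0.00533), and by 0.93 without knockout replicate 3. Its lowest WT library was far above its highest knockout library.

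The cyclins of S phase, G2 and mitosis all fell, as did their kinase. Ccnb2, a partner of CDK1, had the lowest log2 fold change of the 38. It stood at 45.4, 44.8 and 43.8 CPM in WT and at 11.1, 10.6 and 5.52 CPM in the knockout, that is 20.3% of the WT mean. It fell by 2.30 (SE 0.25, adjusted p = 0.00326), and by 2.04 without knockout replicate 3. Ccnb1, its sister gene, stood at 95.1, 92.5 and 98.1 CPM in WT and at 40.4, 35.3 and 12.3 CPM in the knockout. Here replicate 3 was far lower than the other knockout libraries, the fall was 1.70 (SE 0.39, adjusted p = 0.0198), and without replicate 3 it was 1.33. Ccna2, which serves CDK2 and then CDK1, stood at 117, 106 and 106 CPM in WT and at 48.5, 39.4 and 20.2 CPM in the knockout. It fell by 1.61 (SE 0.29, adjusted p = 0.0101). The exons of Ccna2 share 12.5% of their bases with Exosc9 on the other strand, which stood at 24.1 CPM in WT and 38.2 CPM in the knockout. Ccnf, which despite its name is the F-box subunit of a ubiquitin ligase, stood at 41.9, 31.8 and 36.0 CPM in WT and at 21.2, 18.3 and 8.76 CPM in the knockout, a fall of 1.18 (SE 0.31, adjusted p = 0.0284). Cdk1, the kinase of mitosis, stood at 78.9, 76.6 and 74.7 CPM in WT and at 34.9, 31.5 and 19.1 CPM in the knockout. It fell by 1.43 (SE 0.21, adjusted p = 0.00620), and by 1.20 without replicate 3. In bulk RNA, fewer cells in a phase of the cycle and less RNA in each cell cannot be told apart.

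CKS proteins are small subunits that dock CDKs on their substrates, and Cks1b and Cks2 fell unequally. Cks1b stood at 50.8, 48.1 and 48.9 CPM in WT and at 32.0, 31.5 and 27.6 CPM in the knockout, a fall of 0.70 (SE 0.08, adjusted p = 0.00387). Cks2 stood at 41.5, 42.5 and 35.6 CPM in WT and at 20.7, 16.5 and 11.1 CPM in the knockout, a fall of 1.31 (SE 0.22, adjusted p = 0.00816). Per kilobase they were level in WT, where Cks1b held 50.3% ± 2.43 of the sum of both, and in the knockout it held 55.8%, 60.9% and 66.9%. These shares did not overlap (two-sided exact permutation p = 0.1, the smallest possible).

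The phosphatases that switch CDKs on and the kinases that hold CDK1 off fell together. Cdc25b, an activator of CDK1, stood at 89.9, 84.2 and 91.6 CPM in WT and at 36.0, 29.5 and 14.3 CPM in the knockout, a fall of 1.74 (SE 0.31, adjusted p = 0.00933). Cdc25c, also an activator of CDK1, stood at 11.1, 11.8 and 9.21 CPM in WT and at 4.87, 2.94 and 0.953 CPM in the knockout. Its fall of 1.87 had the widest error of the 38 (SE 0.49, adjusted p = 0.0295), and without replicate 3 it was 1.45. Cdc25a, which acts from G1 on, stood at 37.1, 41.7 and 39.5 CPM in WT and at 23.9, 27.6 and 19.5 CPM in the knockout. It fell by 0.74 (SE 0.13, adjusted p = 0.0103). On the opposing side, Wee1 stood at 24.5, 24.3 and 25.5 CPM in WT and at 12.4, 9.92 and 7.19 CPM in the knockout, a fall of 1.33 (SE 0.19, adjusted p = 0.00565). Pkmyt1, the membrane-bound relative of Wee1, stood at 14.2, 11.4 and 14.4 CPM in WT and at 5.92, 4.13 and 2.67 CPM in the knockout, a fall of 1.65 (SE 0.28, adjusted p = 0.00865). None of these 5 genes had a knockout library as high as its lowest WT library.

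**Figure D3:**
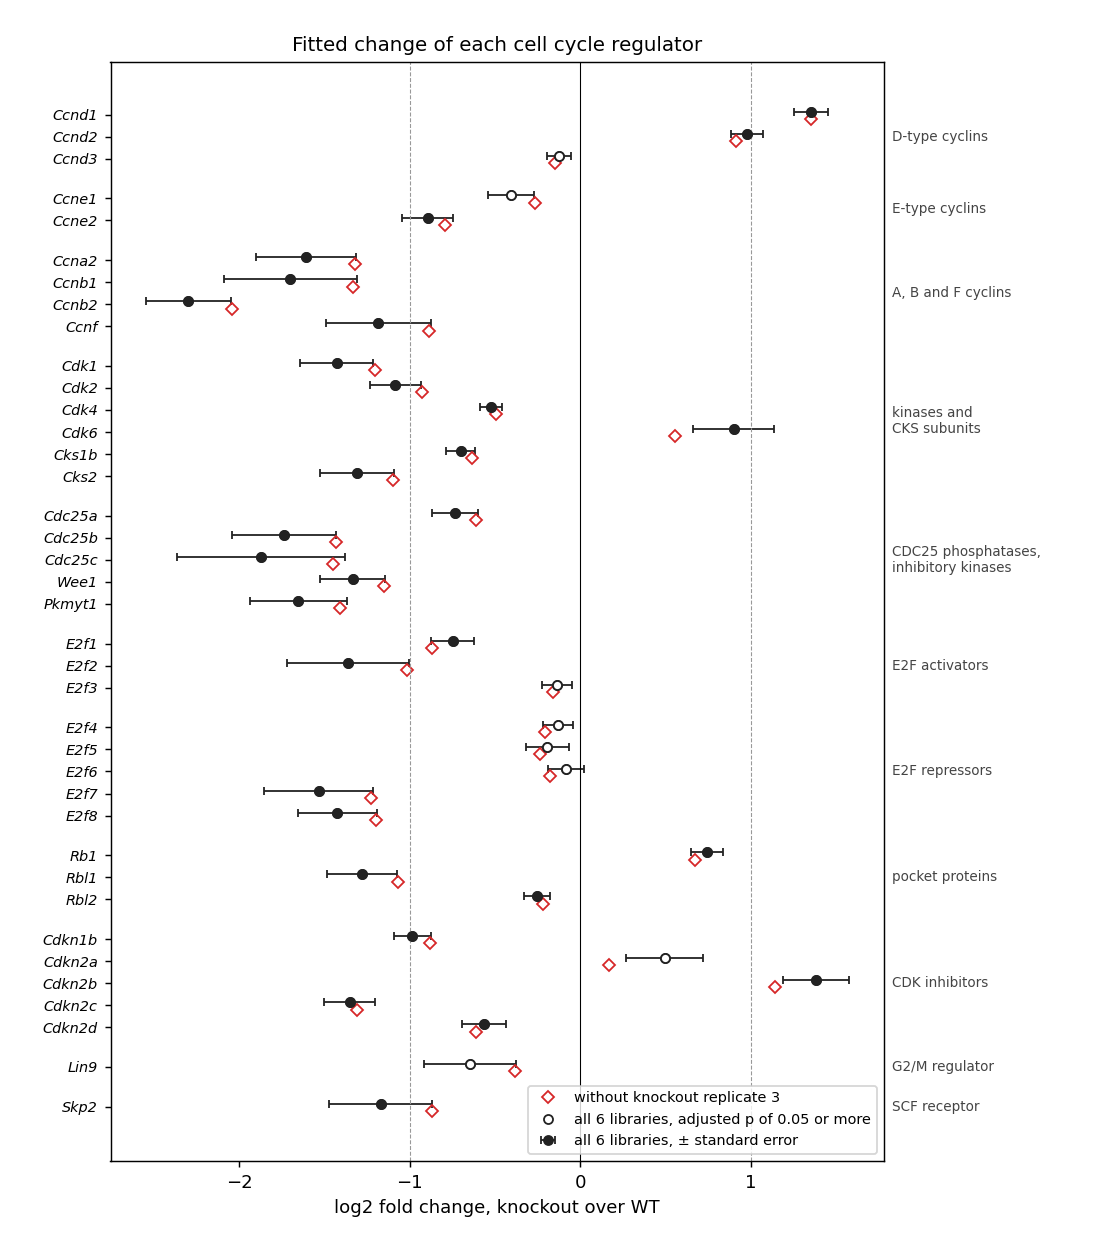
Fitted log2 fold change of knockout over WT for the 38 regulators (horizontal axis), with bars of 1 standard error (n = 3 against 3), and the same without knockout replicate 3 (red diamonds). Filled points passed an adjusted p of 0.05 with all 6 libraries, open points did not, and dashed lines mark a log2 fold change of 1 and of -1. No gene crosses 0 without replicate 3, and most diamonds lie nearer to 0 than their points.

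The E2F family fell in part. Among the activators, E2f1 stood at 28.6, 25.9 and 26.1 CPM in WT and at 13.9, 15.5 and 18.7 CPM in the knockout, a fall of 0.75 (SE 0.13, adjusted p = 0.00855). E2f1 went against the other genes that fell in that knockout replicate 3 was its highest knockout library, and the fall was 0.87 without it. E2f2 stood at 20.3, 21.9 and 21.9 CPM in WT and at 11.8, 9.31 and 3.86 CPM in the knockout, a fall of 1.36 (SE 0.36, adjusted p = 0.0291). E2f3 stood at 48.5, 55.4 and 47.3 CPM in WT and at 46.7, 43.7 and 47.4 CPM in the knockout, so its libraries overlapped (log2 fold change -0.13, adjusted p = 0.268). Of the repressors, the atypical E2f7 and E2f8, which bind DNA without a partner and are themselves E2F targets, fell. E2f7 stood at 21.1, 21.4 and 18.5 CPM in WT and at 9.93, 7.41 and 3.71 CPM in the knockout, a fall of 1.53 (SE 0.32, adjusted p = 0.0149). E2f8 stood at 16.0, 14.1 and 14.3 CPM in WT and at 6.97, 5.94 and 3.67 CPM in the knockout, a fall of 1.42 (SE 0.23, adjusted p = 0.00767). The repressors that work through pocket proteins or Polycomb did not pass: E2f4 had a log2 fold change of -0.13 (adjusted p = 0.299), E2f5 of -0.19 (adjusted p = 0.268) and E2f6 of -0.08 (adjusted p = 0.561). Without knockout replicate 3, E2f4 passed at -0.21 (adjusted p = 0.0291).

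Per kilobase E2f4 was the leading E2F gene of both genotypes, at 25.4 ± 1.30 (SD, n = 3) in WT and 23.2 ± 2.13 in the knockout, followed by E2f6 at 14.2 ± 0.81 and 13.4 ± 1.52. In WT the next genes were E2f3 at 9.94 ± 0.87 and E2f1 at 9.76 ± 0.54, which did not differ beyond their spread. The activators E2f1, E2f2 and E2f3 made up 30.9% ± 0.71 of the 8 genes in WT and 26.8% ± 0.91 in the knockout (two-sided exact permutation p = 0.1, the smallest possible). All 8 genes summed to 78.4 ± 0.75 CPM per kilobase in WT and 62.0 ± 3.32 in the knockout.

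The pocket proteins, which hold E2Fs in check, changed unequally. Rb1 stood at 58.3, 61.4 and 56.2 CPM in WT and at 98.7, 87.9 and 108 CPM in the knockout, and rose by 0.74 ± 0.09 (SE, adjusted p = 0.00431). Its exons overlap those of Rcbtb2 (8.11% of Rb1's exonic bases) and Lpar6 (6.78%) on the other strand. Rcbtb2 stood at 41.2 CPM in WT and 26.5 CPM in the knockout, and Lpar6 at 14.3 and 21.1 CPM. Rbl1, the gene of p107, stood at 26.0, 28.6 and 26.1 CPM in WT and at 12.2, 13.4 and 7.57 CPM in the knockout, a fall of 1.28 (SE 0.21, adjusted p = 0.00763). Rbl2, the gene of p130, stood at 60.7, 57.8 and 56.8 CPM in WT and at 52.6, 47.8 and 46.6 CPM in the knockout. This small fall of 0.25 (SE 0.08, adjusted p = 0.0447) lost its call under edgeR's exact test and without a filter on counts. Per kilobase Rb1 and Rbl2 were near level in WT, with 42.0% ± 0.72 and 39.6% ± 1.37 of the pocket protein sum, and in the knockout Rb1 held 63.2% ± 4.03. Rbl1 held 18.4% ± 0.68 in WT and 6.89% ± 2.16 in the knockout. The sum of the 3 was 30.0 ± 0.94 CPM per kilobase in WT and 33.3 ± 1.71 in the knockout.

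The CDK inhibitors were divided. Cdkn2b, which encodes p15, had the highest log2 fold change of the 38 with all libraries, but not without knockout replicate 3 (1.14, against 1.35 for Ccnd1) nor with the Y-linked term (1.17, against 1.22 for Ccnd1). It stood at 30.9, 26.9 and 33.0 CPM in WT and at 65.0, 68.3 and 103 CPM in the knockout, and rose by 1.38 ± 0.19 (SE, adjusted p = 0.00548), or 1.14 without replicate 3. Its neighbour Cdkn2a, at chr4:89274471-89294653 against chr4:89306299-89311039 for Cdkn2b on GRCm38, encodes p16Ink4a and p19Arf from overlapping exons, and the counts merge both. Cdkn2a stood at 77.5, 78.6 and 81.4 CPM in WT and at 86.5, 91.1 and 157 CPM in the knockout. Every knockout library was above WT, but the log2 fold change of 0.50 ± 0.23 (SE) did not pass (adjusted p = 0.134). Without replicate 3 it was 0.17 and passed (adjusted p = 0.0372), and when single libraries were dropped its adjusted p lay between 0.0372 and 0.269.

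The remaining inhibitors fell. Cdkn2c, the gene of p18, stood at 27.0, 21.9 and 24.1 CPM in WT and at 11.4, 8.31 and 8.95 CPM in the knockout, and fell by 1.35 (SE 0.15, adjusted p = 0.00344). Here replicate 3 was not the lowest, and the fall without it was 1.31. Cdkn2d, which encodes the p19 of the INK4 family, stood at 14.3, 15.5 and 15.2 CPM in WT and at 11.1, 8.59 and 10.8 CPM in the knockout, a fall of 0.56 (SE 0.13, adjusted p = 0.0193). Cdkn1b, the gene of p27, stood at 85.8, 79.1 and 82.3 CPM in WT and at 45.6, 43.9 and 35.4 CPM in the knockout. It fell by 0.98 (SE 0.11, adjusted p = 0.00340), to 50.5% of the WT mean. Per kilobase the 4 INK4 genes summed to 123 ± 3.47 in WT and to 139.8, 143 and 236 in knockout replicates 1 to 3. In this sum the counts of Cdkn2a merge p16Ink4a and p19Arf. Cdkn2a held 71.8% ± 1.07 of that sum in WT and 71.6% ± 2.72 in the knockout, Cdkn2b 11.6% ± 0.92 and 21.7% ± 0.91, and Cdkn2c 8.0% ± 0.83 and 2.39% ± 0.88. The Cdkn2b and Cdkn2c shares did not overlap (two-sided exact permutation p = 0.1, the smallest possible), and for the Cdkn2a share the same exact test gave p = 0.9.

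Skp2, the ubiquitin ligase subunit that marks p27 for destruction, stood at 44.3, 43.7 and 51.4 CPM in WT and at 26.2, 24.7 and 11.1 CPM in the knockout. It fell by 1.17 (SE 0.30, adjusted p = 0.0280), and by 0.87 without replicate 3. Lin9, a subunit of the MuvB core, stood at 13.6, 12.2 and 12.8 CPM in WT and at 8.73, 10.9 and 4.95 CPM in the knockout. The libraries did not overlap, and the log2 fold change of -0.65 ± 0.27 (SE) did not pass (adjusted p = 0.108).

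Genes of 3 further lists, chosen for their place in the pathway, were read beside the 38. The list of G1/S genes holds replication and nucleotide genes known as E2F targets. Of its 28 genes 26 had a row, and all 26 fell (16.6% of all genes fell), with a median log2 fold change of -1.32. Those with the lowest log2 fold changes were Tk1, thymidine kinase (-1.90 ± 0.33, SE, adjusted p = 0.00910), and Pola1, the catalytic subunit of the primase-coupled polymerase (-1.80 ± 0.46, adjusted p = 0.0279). Those nearest to 0 were Slbp, which binds histone mRNA (-0.67 ± 0.15, adjusted p = 0.0182), and Orc6, of the origin recognition complex (-0.50 ± 0.10, adjusted p = 0.0141). Without WT replicate 2 or 3 the number that fell was 15 and 13 (6.13% and 5.17% of all genes), without the other libraries it was 18 to 26, and with the Y-linked term it was 0 by edgeR's quasi-likelihood test. In that fit all 26 still had a negative log2 fold change.

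The list of G2/M genes holds mitotic genes known as targets of DREAM and FOXM1. Of 28 genes tested, 27 fell (16.6% of all genes fell), with a median of -1.71. Kif2c, a kinesin that takes microtubules apart (-2.13 ± 0.40, adjusted p = 0.0111), and Bub1b, of the spindle checkpoint (-2.12 ± 0.47, adjusted p = 0.0181), had the lowest log2 fold changes. Ect2 (-1.32 ± 0.37, adjusted p = 0.0364) and Anln (-1.10 ± 0.24, adjusted p = 0.0171), both of cytokinesis, were nearest to 0 among those that fell. Gtse1, also known as a target of p53, was the exception, at 60.6, 57.4 and 67.7 CPM in WT and 70.5, 72.0 and 55.1 CPM in the knockout (log2 fold change 0.09, adjusted p = 0.603), and without knockout replicate 3 it was higher (0.20, adjusted p = 0.0456). The number that fell was 14, 12 and 10 without WT replicates 1, 2 and 3 (7.31%, 6.13% and 5.17% of all genes), and 23 to 27 without a knockout library. With the Y-linked term 0 fell by edgeR's quasi-likelihood test (0.217% of all genes), and 27 had a negative log2 fold change.

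The list of partners holds other cyclins, kinases, inhibitors, E2F dimer partners, MuvB and ubiquitin ligase subunits, and Trp53 and Mdm2. Of 37 genes 35 had a row and 34 were tested, of which 10 fell (16.6% of all genes fell), 8 rose (16.4% of all genes rose) and 16 did not pass, with a median of -0.0048. Those with the highest log2 fold changes were Mdm2, which degrades p53 (1.60 ± 0.13, adjusted p = 0.00178), and Cdkn1a, the gene of the CDK2 inhibitor p21 (1.47 ± 0.12, adjusted p = 0.00182). Cdkn1a stood at 479, 439 and 477 CPM in WT and at 1186, 1179.6 and 1508 CPM in the knockout. Cdkn1a, absent from the 38, thus moved in the direction opposite to Cdkn1b of the same inhibitor family. Cdkn1c, the gene of p57, stood at 165, 199 and 196 CPM in WT and at 88.4, 115 and 10.9 CPM in the knockout. Its log2 fold change of -1.39 ± 0.70 did not pass with all libraries (adjusted p = 0.168), and without replicate 3 it was -0.88 (adjusted p = 1.44e-04). The lowest were Myb (-2.41 ± 0.74, adjusted p = 0.0458), at under 5 CPM in every library, and Cdkn3, a phosphatase of CDKs (-2.14 ± 0.33, adjusted p = 0.00662). The number that fell was 3 without any 1 WT library (5.17% to 7.31% of all genes) and 6 without knockout replicate 2 (11.6% of all genes). With the Y-linked term it was 0 by edgeR's quasi-likelihood test (0.217% of all genes). The number that rose was 3, 4 and 3 without WT replicates 1, 2 and 3 (7.01%, 5.75% and 5.11% of all genes), and 3 with the Y-linked term.

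**Figure D4:**
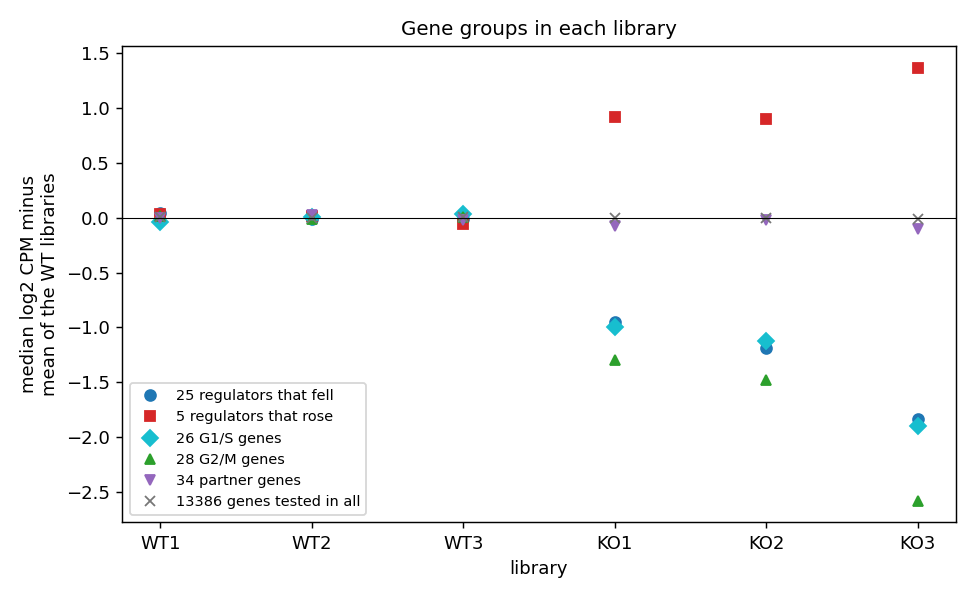
Median over each gene group of the log2 CPM minus the mean of the WT libraries (vertical axis) in each library (WT1 to WT3 and KO1 to KO3). The regulators are grouped by whether they fell or rose, so their direction is given by that choice. In KO3 the 25 regulators that fell sit at -1.83, the G1/S genes at -1.90 and the G2/M genes at -2.58, below KO1 and KO2, while the partners and all genes stay near 0.

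Library by library, the regulators that fell, the G1/S genes and the G2/M genes had their lowest median in knockout replicate 3. The median of the 25 regulators that fell was -0.95, -1.19 and -1.83 in knockout replicates 1 to 3, relative to the WT mean on the log2 scale. That of the G1/S genes was -1.0, -1.12 and -1.90, and that of the G2/M genes -1.30, -1.48 and -2.58. The median of the partners was -0.078, -0.020 and -0.099. Over all genes tested the median stayed between -0.016 and 0.0039 in the 6 libraries.

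Marker genes of several cell types also set knockout replicate 3 apart. The 8 fibroblast markers summed to 26604 to 29015 CPM in WT and to 26290, 32722 and 17409 CPM in knockout replicates 1 to 3. Of them, 2 (Thy1 and Pdgfra) fell. Most of the sum was Col1a1, Col1a2 and Col3a1, with WT means of 10056, 8775.6 and 5710.5 CPM. In knockout replicate 3 these stood at 7067, 4376 and 1899.5 CPM. In that library Pdgfrb (236 CPM) and Twist1 (88.3 CPM) were not below all WT libraries. Vim stood at 3654, 3448 and 3614 CPM in knockout replicates 1 to 3, above every WT library (2655 to 3058 CPM). Its log2 fold change of 0.29 did not pass edgeR's quasi-likelihood test (adjusted p = 0.0577). The 6 macrophage markers summed to 17.9 to 31.9 CPM in WT and to 23.8, 18.5 and 72.3 CPM in knockout replicates 1 to 3, and none passed the test. In replicate 3, Adgre1 alone stood at 31.9 CPM (1.76 to 4.27 CPM in WT). There Ptprc, Csf1r, Tyrobp and Fcer1g were also above every WT library, while Cd68 (8.57 CPM) lay within its WT range of 6.70 to 10.5 CPM. The 5 epithelial markers summed to 41.4 to 43.1 CPM in WT and to 33.4, 23.3 and 3.14 CPM, of which 4 were tested and none passed. Krt8 stood at 30.3, 28.4 and 29.5 CPM in WT and at 18.1, 12.4 and 0.714 CPM in the knockout. Without knockout replicate 3, Krt8 (-0.95, adjusted p = 3.47e-04) and Krt18 (-0.94, adjusted p = 0.0465) were lower by edgeR's quasi-likelihood test. Epcam (-0.80, adjusted p = 0.104) and Cdh1 (0.20, adjusted p = 0.309) did not pass in that fit. The 4 endothelial markers summed to 48.3 to 59.0 CPM in WT and to 66.9, 53.6 and 32.3 CPM, nearly all of it Tek, and the defining markers Pecam1 and Cdh5 stayed under 1 CPM in every library. The part of these cells in the values of knockout replicate 3 was not tested.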

How the data were processed

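RNA-seq libraries of 3 WT and 3 Rnf20-/- cultures were compared, with genotype and replicate number taken from the sample labels. Per the submitters' processing notes and the study's methods, stranded poly(A) libraries were aligned to GRCm38/mm10 with HISAT2 2.1.0. The authors deposited raw counts per gene with gene lengths, and the program that made the counts is not given in the sources used here. The authors also deposited FPKM values from Cufflinks 2.1.1 for 12633 genes. The log2 fold changes and adjusted p-values that the authors deposited in the same table hold their own comparison of the genotypes and were not used.

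In R 4.3.3, edgeR 4.0.16 was used with TMM factors, filterByExpr and the quasi-likelihood test of genotype without covariates, adjusted by Benjamini-Hochberg over 13386 genes. The standard error of a log2 fold change is its size divided by the square root of F. CPM values use TMM-normalized library sizes, and log2 CPM a prior count of 2. In libraries of 20545442 to 21746898 counts, 3 counts equal about 0.142 to 0.143 CPM, and this covers counting error only. In simulated counts for this comparison in which 200 of 13252 genes moved by 1 log2 unit, 64% were recovered and 10 unchanged genes were called. The simulation gave each gene the same mean and spread in all libraries of a genotype, so none stood apart as knockout replicate 3 did. It therefore cannot give the error rate of the real comparison.

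The 40 genes, the lists and the tests were chosen with earlier results of these data known. All regulators are named, with Rnf20, Rnf40, Cdkn1a, Cdkn1c and, from each list, the 2 lowest and 2 highest log2 fold changes that passed. Gtse1 and the single marker genes were named after their values were seen. Positions and overlaps came from GENCODE M21, and promoters from RefSeq. Deviations of same-numbered libraries had correlations of -0.066, 0.037 and 0.011. These cannot decide whether the libraries were paired, because knockout replicate 3 stood apart from the other knockout libraries. The sources used here name no pairs of libraries. Alternatives were edgeR's exact test, DESeq2 1.42.0, RLE factors or library size alone as scaling, other count filters, the replicate number as a block, a term for the Y-linked genes, the authors' FPKM for cyclin shares, and each library left out.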

Additional observations from a re-analysis of the deposited data

How the results depend on the processing

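No regulator changed sign under any alternative. With RLE factors, library size only, DESeq2, edgeR's exact test and the other count filters, at most 1 of the 38 regulators changed its call. The study's thresholds depended most on the setting: 17 regulators were lower with DESeq2 and 17 with the exact test, against 10. Of all 13386 genes, 565 were lower at those thresholds with DESeq2 and 566 with the exact test, against 279. Whether the replicate number pairs the libraries is not known. With it as a block, 0 regulators were lower and 0 higher at those thresholds by edgeR's quasi-likelihood test, as were 0 and 0 of all genes. The smallest adjusted p of the regulators was 0.0204 in that fit. At an adjusted p under 0.05 by the same test, 22 regulators were lower and 4 higher with the block. Of all 13386 genes, 1490 were lower and 1385 higher in that fit. Of the 34 partners tested, the block left 6 lower and 6 higher. Among the regulators it lost the calls of Cdk6, Rbl2, Cdkn2d and Skp2. The term for the Y-linked genes leaves 1 knockout library with those genes. With it, 0 regulators were lower and 1 higher at an adjusted p of 0.05, and 0 and 0 at the study's thresholds. That term left 0 partners lower and 3 higher, 0 G1/S genes lower and 0 G2/M genes lower, and turned Rnf40 to 0.081. With each library left out, the regulators numbered 16 to 28 lower and 4 to 6 higher, and 0 to 14 lower and 0 to 2 higher at the study's thresholds. At those thresholds they were 0 lower without any 1 WT library or knockout replicate 2 by edgeR's quasi-likelihood test. Of all genes, 1 was lower at those thresholds without each WT library, and 30 were without knockout replicate 2. With each library left out, 3 to 12 partners were lower and 3 to 9 higher at an adjusted p under 0.05. The G1/S genes numbered 13 to 26 lower, and the G2/M genes 10 to 27 lower and 0 to 1 higher. The Rnf40 value ran from -0.068 to 0.057, above 0 when WT replicate 3 (0.024) or knockout replicate 3 was dropped. The Ccnd1 share of the D-type cyclins in WT was 28.1% with the authors' FPKM. Every fit with 1 library left out has fewer residual degrees of freedom, also the one without knockout replicate 3. The cause of the differences between settings was not tested.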

Other observations

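Among the partner genes, named here after their values were seen, both dimer partners of the E2F proteins were lower in the knockout. Tfdp1 stood at 175, 189 and 186 CPM in WT and at 152, 144 and 131 CPM in the knockout, a fall of 0.36 on the log2 scale (SE 0.08, adjusted p = 0.0180 from edgeR). Tfdp2 stood at 83.3, 94.2 and 85.3 CPM in WT and at 61.3, 58.6 and 53.8 CPM in the knockout, a fall of 0.60 (SE 0.09, adjusted p = 0.00565). The libraries of neither gene overlapped. With single libraries left out, the largest adjusted p from edgeR was 0.0747 for Tfdp1, which thus lost its call, and 0.0350 for Tfdp2. Trp53 itself stood at 150.4, 142 and 143 CPM in WT and at 137, 139 and 166 CPM in the knockout (log2 fold change 0.02, adjusted p = 0.888), beside the rise of Mdm2 and Cdkn1a, which p53 is known to activate.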
